A study of Arabidopsis thaliana with 8 samples.

Results

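The data described here are the transcript levels of 569 Arabidopsis thaliana loci that lie in 2 stretches of chromosome 5, measured in leaves of 8 strains. The first stretch runs from AT5G11610 to AT5G14370 in the order of the locus names and holds 244 measured loci. The second runs from AT5G39670 to AT5G42840 and holds 325. Together they are 569 of 25665 loci on the array. The stretches were chosen by the array levels of the strain ExTQ003, which were low there relative to the other strains, so every value that sets ExTQ003 against the others is a description and carries no test. The array probed 241 of the 250 protein-coding genes that the reference gene table places in the first stretch (96.4%) and 322 of 346 in the second (93.1%). The sources used here name no genome build for the array, so loci are placed by name order and no coordinates are printed.

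The 8 strains were ExTQ003, ExTQ002, ExTQ013, ExTQ015, ExTQ005, ExTQ016, ExTQ018 and ExTQ019, all diploid progeny of plants that carried a gene for the restriction enzyme MseI and had been heated for 3 h at 33 °C. They grew for 4 weeks on agar with 1% sucrose under 16 h of light a day. All strains share that ancestry, no unheated or MseI-free plant was analysed here, and each strain had 1 array. The sources used here do not say whether plants were pooled for an array. Sample titles gave the strain names, but the descriptions give other numbers. The array titled ExTQ003 is described as ExTQ004, and the array titled ExTQ015 is described as ExTQ003, so "ExTQ003" below means the array with that title.

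In the Ex-TAQing method, a restriction enzyme made by the plant itself is activated by mild heat and cuts the genome at many sites, and the breaks are joined again by the cell's repair pathways. MseI cuts at a short A- and T-rich motif that is frequent in plant genomes. Misjoined ends can delete, duplicate, invert or move pieces of chromosome, which is why progeny of such plants are used as a source of rearranged genomes. An array of labelled RNA measures transcripts relative to the whole pool of labelled RNA. It does not count copies of a gene, and gene copies were not measured here.

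A level below is the log2 processed intensity of a locus's probe minus the 75th percentile of its array. A locus counts as bright if the scanner software marked its probe well above background in 6 or 7 of the strains other than ExTQ003, and as dim otherwise. Of the 244 loci in the first stretch 209 were bright and 35 dim, and of the 325 in the second 238 were bright and 87 dim. A shift is the level of ExTQ003 minus the median level of the 7 others, centred on the median over all bright loci of the genome. For any other strain, the shift is taken from the median of the other 6, with ExTQ003 left out.

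The share of all loci well above background was 78.8% in ExTQ003 and 77.2% to 83.6% in the 7 others. Spots of the same replicate probe within an array, control probes left out, had a median SD of 0.06 log2 units in ExTQ003 and 0.05 to 0.08 in the others. Each of 8 leaf markers was well above background on all 8 arrays. Flower markers were also present, with 7 of 7 well above background and a summed level of 3.26 in ExTQ003, against 5 to 7 of 7 and -0.55 to 4.45 in the others. Of 5 tapetum markers, 4 were well above background in ExTQ003 and 0 to 5 in the others. Seed storage markers were well above background on 2 arrays, 6 of 6 in ExTQ016 and 3 of 6 in ExTQ018. ExTQ019 stood apart, with a median correlation across loci of 0.915 with the other arrays, against 0.956 for ExTQ003 and 0.935 to 0.967 for the remaining 6. ExTQ003 shared its slide with ExTQ002, ExTQ013 and ExTQ015, and ExTQ005, ExTQ016, ExTQ018 and ExTQ019 were on a second slide that was scanned apart.

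In ExTQ003 transcripts of both stretches stood at about the same fraction of their level in the other strains, and most bright loci were below it. The median shift of the 209 bright loci of the first stretch was -0.41 in ExTQ003, or 75.1% of the level of the others, with quartiles at -0.61 and -0.26. The same median was -0.04 to 0.08 in the 7 others (SD 0.04, n = 7). Over the 238 bright loci of the second stretch the median shift was -0.40 in ExTQ003, or 75.9%, with quartiles at -0.65 and -0.16, against -0.04 to 0.14 in the 7 others (SD 0.06, n = 7). ExTQ003 was thus the lowest strain in each stretch, far from the next one. Over the 19156 other bright loci the median was 0.01 in ExTQ003 and 0.00 in each of the others. The median of ExTQ003 was also between 0.00 and 0.04 on the 3 remaining pieces of chromosome 5 and between -0.01 and 0.01 on chromosomes 1 to 4.

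**Figure D1:**
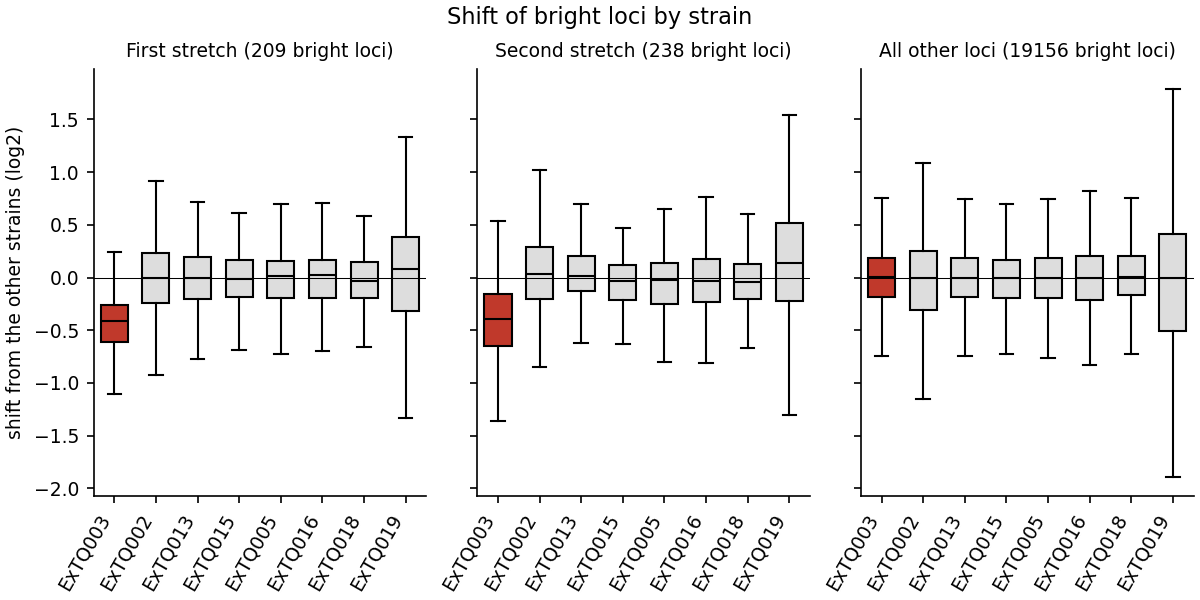
Box plots of the shift (log2) of bright loci in each strain, ExTQ003 in red at the left and the 7 others in grey, for the first stretch, the second stretch and all other loci. Boxes span the quartiles with the median as a line, and whiskers reach the last value within 1.5 times the box height. The ExTQ003 boxes lie below 0 in both stretches, with medians of -0.41 and -0.40, and around 0 elsewhere.

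The values were similar whichever strain ExTQ003 was set against. Taken against each other strain alone, the median difference of ExTQ003 in the first stretch lay between -0.48 (against ExTQ019) and -0.39 (against ExTQ018). In the second stretch it lay between -0.52 (against ExTQ019) and -0.38 (against ExTQ005). In each of these comparisons most bright loci were lower in ExTQ003, from 77.3% of the second stretch against ExTQ002 to 96.2% of the first against ExTQ005. Against the 3 strains on its own slide the medians were -0.42 and -0.42, and against the 4 strains on the other slide -0.42 and -0.41. Without ExTQ019 the medians were -0.43 and -0.39.

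Locus by locus, ExTQ003 stood below 0 at 193 of 209 bright loci of the first stretch (92.3%) and 205 of 238 of the second (86.1%). The centring puts as many bright loci of the genome above 0 as below it. It was below every one of the 7 others at 118 loci of the first stretch (56.5%) and 120 of the second (50.4%), a measure for which the share over all 19603 bright loci was 11.2%. It was above all 7 at 1 bright locus in each stretch, where the share over all bright loci was 13.4%. No other strain was lowest at more than 16.3% of the bright loci of either stretch. Without ExTQ019 ExTQ003 was the lowest of the remaining strains at 270 of the 447 bright loci, against 14.2% of all bright loci.

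The bright loci of both stretches lay lower as a whole, with quartiles of -0.63 and -0.22 in ExTQ003 against -0.19 and 0.19 over bright loci elsewhere, a spread of about the same width. Of the 447 bright loci, 216 (48.3%) had a shift between -0.6 and -0.2, against 16.6% of bright loci elsewhere. Another 87 (19.5%) lay between -1 and -0.6, and 40 (8.95%) below -1, against 3.83% and 3.15% elsewhere. Loci at 0 or above made up 7.66% of the first stretch and 13.9% of the second, against 50.9% of bright loci elsewhere.

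In the order of the locus names, block medians stepped at the start of the first stretch and at the end of the second, and changed gradually at the other 2 edges. The stretches were chosen by the values of ExTQ003, so a step at an end is a description. Blocks of 20 consecutive bright loci, with the last block of each stretch taking the remainder, had medians of -0.54 to -0.31 in all 10 blocks of the first stretch. The 7 others had block medians of -0.18 to 0.21 there. The 2 blocks before the first stretch stood at -0.04 and 0.10. After its end the next block, AT5G14380 to AT5G14590, still stood at -0.29, with 14 of 20 loci below 0, and the one after it at -0.09. By the block medians, lower levels thus ran past the last locus named by the rule.

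The second stretch was uneven at its start. Its first block, AT5G39670 to AT5G39980, stood at -0.08 with 11 of 20 loci below 0, inside the range of the 7 others (-0.17 to 0.26). The next, AT5G39990 to AT5G40240, stood at -0.29, and the remaining 9 blocks lay between -0.55 and -0.32. Of these, the block from AT5G41190 to AT5G41610 had all 20 loci below 0. The 2 blocks before the second stretch had medians of -0.18 and -0.02 and the 2 after it 0.06 and 0.06. Blocks of 20 or more loci cannot place the end of the drop at a single locus.

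**Figure D2:**
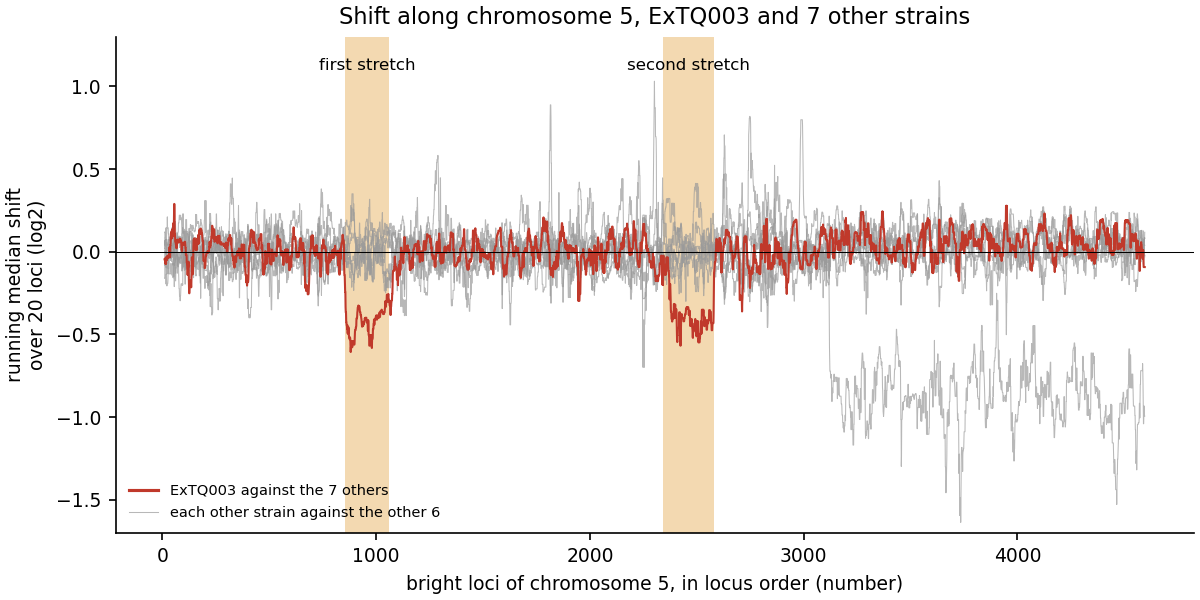
Running median of the shift (log2) over 20 consecutive bright loci of chromosome 5, in locus order, for ExTQ003 (red, against the 7 others) and each other strain (grey, against the other 6). The stretches are shaded, and the red line falls in both, to block medians as low as -0.54 and -0.55. It is near 0 at the start of the second stretch and still low just past the end of the first. The grey line that falls at the right end is ExTQ019, whose chromosome 5 end had a median shift of -0.87 against all 7 others.

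**Figure D3:**
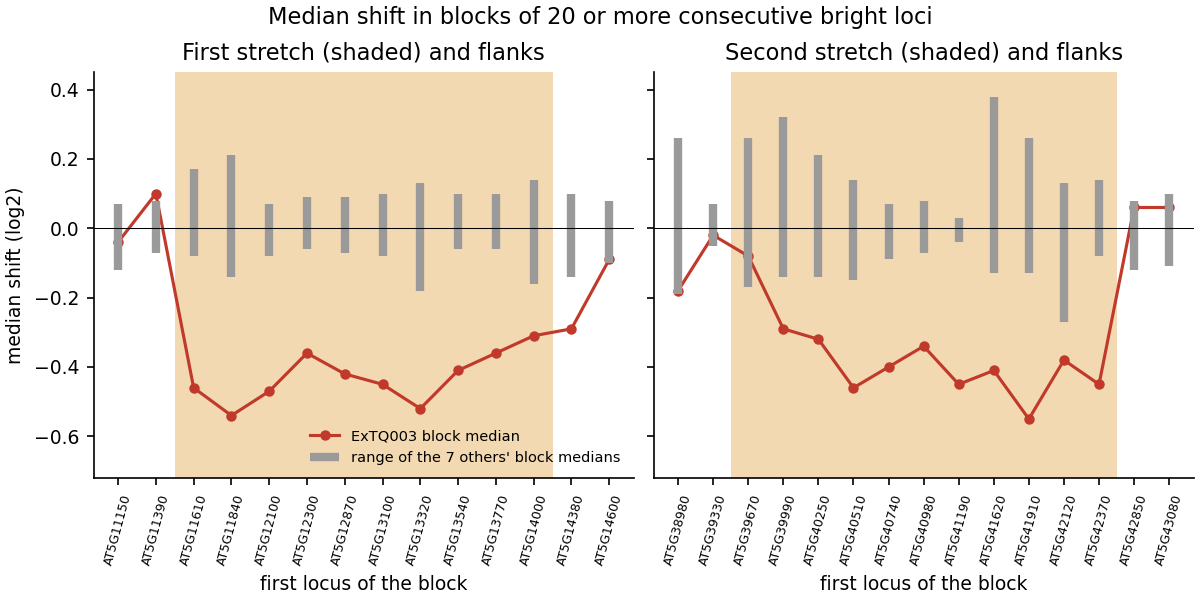
Block medians of the shift (log2) in ExTQ003 (red points) with the range of the 7 other strains (grey bars), for blocks of 20 or more consecutive bright loci inside the stretches (shaded) and in 2 blocks on each side. Red points lie below the grey bars in every shaded block except the first of the second stretch, and in the block after the first stretch. In the block before the first stretch the red point (0.10) lies just above the bar, which ends at 0.08.

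Single loci at the edges showed the same. Just before the first stretch, the level of AT5G11600 was 1.33 in ExTQ003 and 0.85 to 1.76 in the others (median 1.42). Just inside, AT5G11640 had a level of -1.76 in ExTQ003, against -1.50 to -0.98 in the others (median -1.09), a shift of -0.70. The first locus of the rule, AT5G11610, was less clear, with -1.32 in ExTQ003 inside the -2.33 to 0.09 of the others. At the far end AT5G14370 had 3.60 in ExTQ003 and 3.45 to 4.20 in the others, a shift of -0.30 within their spread. Beyond it AT5G14390 (shift -0.47) and AT5G14430 (-0.58) still stood below all 7 others, while AGP6, a pollen arabinogalactan protein next to the last locus, stood at -2.38 in ExTQ003 within the -4.56 to 0.96 of the others.

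At the start of the second stretch, CDF2, a DOF transcription factor of the photoperiod pathway, stood just outside with -2.50 in ExTQ003 and -2.66 to -2.17 in the others, a shift of 0.02. Inside it, the first locus AT5G39670 had -4.27 in ExTQ003 and -4.19 to 1.45 in the others, which were themselves widely spread. RPL5B, a protein of the large ribosomal subunit, had -4.09 in ExTQ003, against -3.46 to -2.86 in the others (median -3.09), or 48.9% of their median. At the other end IPK1, an inositol phosphate kinase of phytate synthesis, had 0.27 in ExTQ003 and 0.61 to 0.97 in the others (median 0.75). U2AF35B, a splicing factor subunit, had 0.78 in ExTQ003 and 1.17 to 1.49 in the others (median 1.31). Both were below all 7 others. The loci after them, AT5G42825, AT5G42830 and the last locus AT5G42840, had shifts of -0.51, -1.36 and -0.71 within the range of the others. AT5G42850, just outside, had 2.50 in ExTQ003 within the 2.30 to 3.07 of the others, a shift of -0.16.

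ExTQ003 stood below all 7 others more often where those strains varied less, which follows in part from the SD used to split the loci. The median SD over the 7 others was 0.26 in the first stretch, 0.28 in the second and 0.32 over the other bright loci. Bright loci were split into 3 classes of equal size by that SD. In the class with the smallest SD, ExTQ003 stood below all 7 others at 78 of 92 loci of the first stretch (84.8%) and 70 of 90 of the second (77.8%), against 14.7% of such loci elsewhere. Their median shifts were -0.43 and -0.42. In the class with the largest SD the medians were -0.53 and -0.51, but the lower quartile reached -0.95 and -1.06, and ExTQ003 was below all others at 28.1% and 26.8%. In 3 such classes by brightness, the dimmest bright loci had median shifts of -0.31 and -0.30, the middle class -0.46 and -0.40, and the brightest -0.42 and -0.46. Loci elsewhere had 0.05, 0.02 and -0.03 in the same classes, so the stretches lay below the genome at each brightness.

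**Figure D4:**
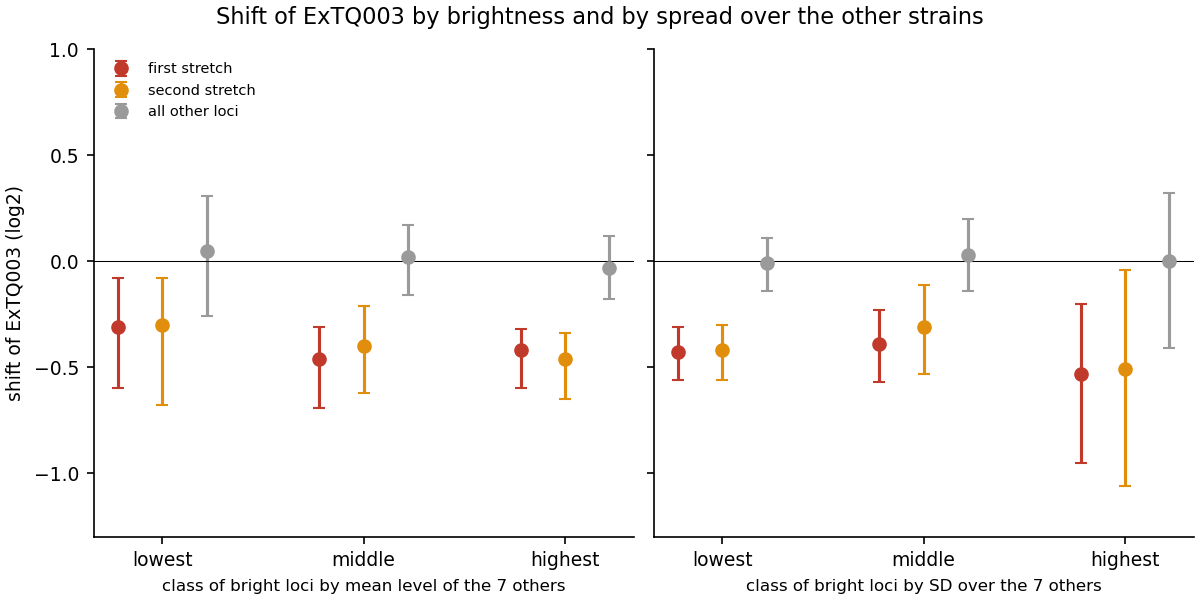
Median shift of ExTQ003 (log2, points) with quartiles (bars) for bright loci split into 3 classes by mean level (left) and by SD (right) over the 7 other strains, for the first stretch, the second stretch and all other loci. In every class the stretches' medians lie between -0.53 and -0.30 and those of the other loci between -0.03 and 0.05.

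Single genes are given first for loci where the 7 others varied least, a choice that makes a gap below them more likely. Of the 10 steadiest bright loci of the first stretch, whose SD over the others was at most 0.10, 9 were lower in ExTQ003 than in any other strain, with shifts from -0.62 to -0.10. AK-LYS1, an aspartate kinase of lysine and threonine synthesis, had a level of 1.08 in ExTQ003, against 1.48 to 1.76 in the others (median 1.66), a shift of -0.61. AT5G11710 had 0.75 in ExTQ003 and 1.12 to 1.42 in the others (median 1.35), a shift of -0.62. HEMG2, a protoporphyrinogen oxidase of tetrapyrrole synthesis, had 0.33 in ExTQ003 and 0.58 to 0.84 in the others (median 0.65), a shift of -0.36. In each of the 3, ExTQ003 lay apart below a tight group.

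Other steady loci of the first stretch had similar shifts. AT5G12120 had 2.91 in ExTQ003 and 3.18 to 3.35 in the others (median 3.31). AT5G13780 had 1.78 in ExTQ003 and 2.17 to 2.44 in the others (median 2.21). AT5G13970 had 0.82 in ExTQ003 and 1.11 to 1.40 in the others (median 1.33). Not every locus took part. BET9, a bromodomain protein, had 0.70 in ExTQ003, hardly below the 0.71 to 0.97 of the others, and AT5G13770 had -4.56 in ExTQ003, within the -4.59 to -4.37 of the others, the 1 exception among the 10.

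In the second stretch all 10 of the steadiest loci (SD at most 0.08) were lower in ExTQ003 than in any other strain, with shifts from -0.77 to -0.18. SGF29b, a homologue of a subunit of the SAGA histone acetyltransferase complex, had -1.06 in ExTQ003, against -0.62 to -0.43 in the others (median -0.54). GLA1 had -0.53 in ExTQ003 and -0.10 to 0.08 in the others (median 0.00). AT5G40660 had 1.15 in ExTQ003 and 1.77 to 1.99 in the others (median 1.89), the largest shift of the 10. In each of these the gap below the lowest other strain was wider than the whole range of the 7 others.

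AT5G41330 had 0.32 in ExTQ003 and 0.70 to 0.82 in the others (median 0.73), AT5G41950 1.18 in ExTQ003 and 1.66 to 1.86 in the others (median 1.69), and AT5G41580 -1.82 in ExTQ003 and -1.54 to -1.35 in the others (median -1.48). The smallest shifts of the 10 were -0.18 at SDG25 and -0.27 at BPC6. SDG25, a histone H3 methyltransferase, had -1.47 in ExTQ003 and -1.42 to -1.21 in the others (median -1.32). BPC6, a transcription factor that binds GA repeats, had 2.50 in ExTQ003 and 2.65 to 2.87 in the others (median 2.74).

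**Figure D5:**
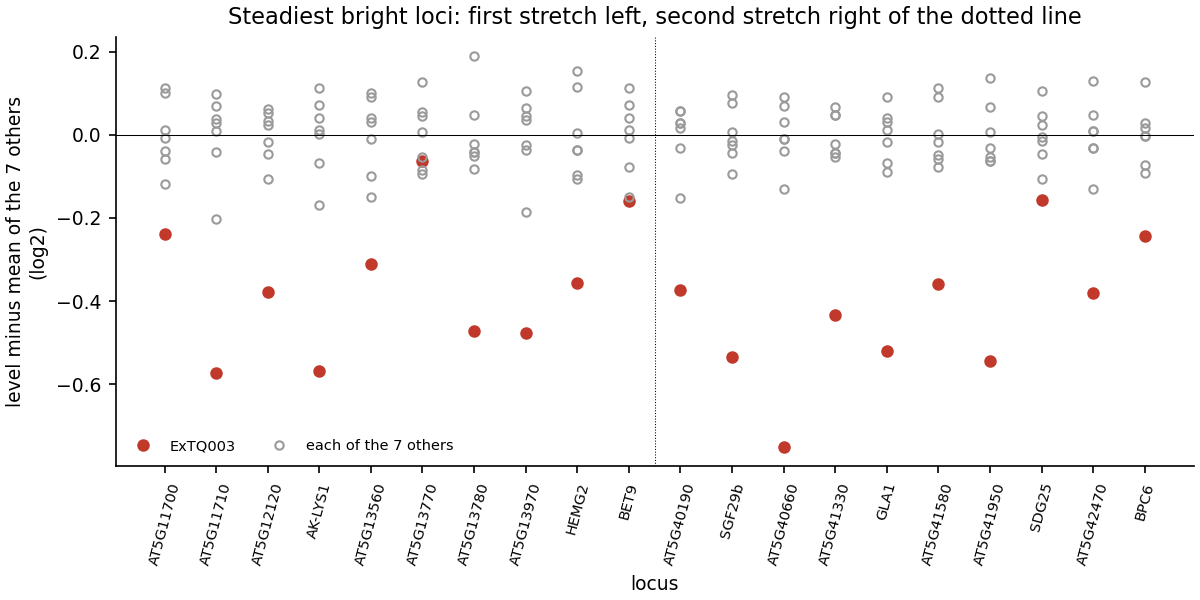
Level of the 10 steadiest bright loci of each stretch relative to the mean of the 7 other strains (log2), ExTQ003 as filled red points and each other strain as an open grey point. ExTQ003 is the lowest of the 8 at 19 of the 20 loci, the exception being AT5G13770.

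Of the 5 loci with the highest intensity in each stretch, 3 of the first and 2 of the second were below all 7 others, and none was above them. Of all bright loci of the stretches 53.2% were below all 7 others and 0.447% above them. AGP15, an arabinogalactan peptide of the cell wall, had 3.76 in ExTQ003 and 4.10 to 4.45 in the others (median 4.33), a shift of -0.60. NACA3, a subunit of the nascent polypeptide-associated complex, had 3.74 in ExTQ003 and 3.96 to 4.25 in the others (median 4.07). GRXC2, a glutaredoxin, had 3.38 in ExTQ003 and 3.69 to 4.28 in the others (median 3.96). UBC8, a ubiquitin-conjugating enzyme, had 4.96 in ExTQ003 and 5.31 to 5.66 in the others (median 5.39), or 72.6% of their median. All 4 were below every other strain, as was AT5G13440 (shift -0.58).

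The function lists that follow are short and were picked by hand, and they leave out other genes of the same kind in the stretches, so their counts describe the listed genes only. Among genes left out, named after their values were seen, are the chloroplast protease DEG8 (shift 0.01), the transporters KEA6 (-0.31) and UMAMIT42 (-0.18) and the transcription factors WRKY75 (-1.01) and NAC084 (-0.21). Of these 5 only WRKY75 was lower in ExTQ003 than in every other strain.

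Of 6 listed chloroplast genes, all bright, 6 were below 0 with a median shift of -0.41, where 89.0% of all bright loci of the stretches were below 0. DiT1, the 2-oxoglutarate/malate translocator of the envelope, had 2.82 in ExTQ003 and 3.13 to 3.55 in the others (median 3.31). RPL27, a ribosomal protein of the plastid, had 3.31 in ExTQ003 and 3.49 to 3.91 in the others (median 3.70). Both were below all 7 others. VAR1, an FtsH protease of the thylakoid membrane (shift -0.41), SVR3, a plastid translation factor (-0.41), and EMB3136, a plastid ribosomal protein (-0.37), stood within the range of the others, with ExTQ002, ExTQ013 or ExTQ019 lower still. GUN5, the H subunit of magnesium chelatase in chlorophyll synthesis, had 4.73 in ExTQ003, within the 4.30 to 5.54 of the others, a shift of -0.09.

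Of 5 listed transporters 5 were below all 7 others, as were 53.2% of all bright loci of the stretches. The median shift of the 5 was -1.02. The sugar transporter SWEET8, which is not on the list, had a shift of 0.92 within the range of the others. PHT3;1, the phosphate carrier of mitochondria, had 2.95 in ExTQ003 and 3.40 to 4.12 in the others (median 3.93), or 49.5% of their median. AAC2, a mitochondrial ADP/ATP carrier, had -1.38 in ExTQ003 and -0.64 to 0.20 in the others (median -0.09), a shift of -1.32. SULTR4;1, a sulfate exporter of the vacuole, had -0.39 in ExTQ003 and 0.05 to 1.08 in the others (median 0.58). These 3 lie in the first stretch, and their shifts lie below its lower quartile. CLC-A, the nitrate/proton exchanger of the vacuole, had 2.12 in ExTQ003 and 2.21 to 2.71 in the others, and LHT1, an importer of amino acids, had -0.44 in ExTQ003 and 0.06 to 3.75 in the others, with shifts of -0.42 and -1.13.

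A run of GH3 genes, whose enzymes join amino acids to hormones and related acids, held 5 loci in the first stretch, of which 3 were bright and all below 0 (median shift -0.94). PBS3, which acts in salicylic acid synthesis, had -2.13 in ExTQ003 and -1.74 to 2.43 in the others (median -1.23). AT5G13370 had -0.68 in ExTQ003 and -0.40 to 0.82 in the others (median 0.50). AT5G13360 had -4.39 in ExTQ003 within the -4.50 to -2.80 of the others. The dim AT5G13380 went the other way, with -3.04 in ExTQ003 against -9.43 to -3.05 in the others, of which 5 were well above background.

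Of 7 listed genes of DNA repair and chromatin 7 were below 0, with a median shift of -0.29 and 3 below all 7 others. Over all bright loci of the stretches 89.0% were below 0 and 53.2% below all 7 others. XPB2 and XPB1 are tandem copies of the DNA helicase that serves both nucleotide excision repair and transcription initiation. XPB2 had -2.74 in ExTQ003, against -2.46 to -2.13 in the others (median -2.20), whereas XPB1 had 0.89 in ExTQ003 within the 0.79 to 1.40 of the others (median 1.00). SUVH4, a histone H3 lysine methyltransferase, had -0.93 in ExTQ003 and -0.66 to -0.25 in the others (median -0.46). TBP1, a telomere-binding protein, had -0.97 in ExTQ003 and -0.92 to 0.84 in the others (median -0.51). ATR, the kinase of the replication checkpoint, had -3.79 in ExTQ003 within the -4.01 to -3.15 of the others (median -3.53). SYN2, a cohesin subunit, and CHC1, a chromatin-remodelling component, had shifts of -0.11 and -0.12, both inside the spread of the others.

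The TIR-NBS-LRR genes, which encode intracellular immune receptors, had the smallest median shift of the lists with more than 1 bright member. Of 6 bright members 4 were below 0, 1 was below all 7 others, and the median shift was -0.10. AT5G41750 had -2.82 in ExTQ003 and -2.66 to 1.75 in the others (median -1.11), a shift of -1.74. AT5G41740 had -4.59 in ExTQ003, inside the -5.59 to -1.32 of the others. AT5G40910 (shift -0.07) and AT5G40060 (-0.13) stood near the others, and AT5G40090 and AT5G40100 stood at -4.79 and -5.49 in ExTQ003, above their medians in the others by 0.53 each but within the others' range.

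Of 17 listed transcription factor genes 10 were bright, with a median shift of -0.20, 8 below 0 and 4 below all 7 others. Over all bright loci of the stretches 89.0% were below 0 and 53.2% below all 7 others. Rap2.6L, an ERF-type factor, had -1.94 in ExTQ003 and -1.39 to 0.11 in the others (median -0.21), or 29.5% of their median. BEL1, the homeodomain factor of ovule integument development, had 0.04 in ExTQ003 and 0.19 to 1.66 in the others (median 0.76). NAC083 had 2.78 in ExTQ003 and 2.86 to 4.59 in the others (median 3.17), and AT5G41920 had 0.51 in ExTQ003 and 0.52 to 1.20 in the others (median 0.91). Those 4 of the list were lower in ExTQ003 than in any other strain, as was BPC6, which the list leaves out. NF-YA1, a subunit of the CCAAT-binding complex, and PRE1, a small helix-loop-helix protein of gibberellin-promoted growth, had shifts of 0.04 and 0.42 within the spread of the others.

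A pair of flavonoid enzymes lies in different stretches. TT4, the chalcone synthase that begins the pathway, had -1.58 in ExTQ003, within the -2.46 to 0.26 of the others, and DFR, the dihydroflavonol reductase of its later part, had -5.61 in ExTQ003, within the -6.71 to 1.23 of the others. Their shifts were -0.36 and -1.26. Flavonoid genes outside the stretches had a median shift of -0.32 in ExTQ003, with 4 of 6 below 0 and 0 below all 7 others. Of the 3 genes of the marneral cluster, which makes a root triterpene, 1 was bright, CYP705A12, at 0.72 in ExTQ003 within the 0.35 to 1.15 of the others.

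Among the 40 bright loci with shifts below -1, 34 (85.0%) belonged to the class with the largest SD over the other strains. Of the 604 such loci elsewhere in the genome, 96.7% did. Of the 40, 25 were below all 7 others. ExTQ019 was the highest of the 8 strains at 23 of the 40 (57.5%), compared with 54.3% of the 604 elsewhere. cwINV6, an enzyme of the cell-wall invertase family, had -7.15 in ExTQ003 and -5.89 to 1.73 in the others (median -4.12). CML37, a calmodulin-like protein, had -5.20 in ExTQ003 and -4.41 to 1.60 in the others (median -2.70). JAZ10, a repressor of jasmonate signalling, had -1.62 in ExTQ003 and -1.53 to 0.67 in the others (median -0.11). In each of the 3 ExTQ003 was the lowest strain, but the others alone spanned over 2 log2 units.

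At 7 of the 447 bright loci (1.57%) the probe was not well above background in ExTQ003, compared with 0.918% of all bright loci, so that only a bound on the difference can be given. For these the bound sets the mean of the 7 others against the higher of the locus's own ExTQ003 signal and the lowest ExTQ003 signal well above background. HSP17.6A and HSP17.6II, neighbouring cytosolic small heat shock proteins, were at -7.68 and -9.38 in ExTQ003 and averaged -4.95 and -6.23 in the others, where 6 of 7 were well above background for each, or at least 5.36-fold and 2.22-fold higher there. PUP12, a member of the purine permease family, was at -9.54 in ExTQ003 and averaged -6.18 in the others, or at least 2.28-fold higher there. AT5G12340 was at -7.57 in ExTQ003 and averaged -5.07 in the others, or at least 4.94-fold higher there. The 3 others, AT5G40000, AT5G40310 and AT5G40680, had bounds of 4.48-fold, 1.59-fold and 2.17-fold with 6 of 7 others well above background. At these 3 ExTQ003 had -7.56, -8.70 and -7.87, and the lowest other strain lay below it at -8.36, -9.91 and -7.95. At the rest of the 7 loci ExTQ003 was the lowest strain. The remaining chaperone of the list, BIP2, an Hsp70 of the endoplasmic reticulum, had 1.68 in ExTQ003 and 1.73 to 3.81 in the others (median 2.16), a shift of -0.51.

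Few bright loci were higher in ExTQ003. AT5G40140 had -3.67 in ExTQ003, against -5.26 to -4.62 in the others (median -5.02), or 250% of their median. AT5G12910 had -1.17 in ExTQ003 and -1.95 to -1.50 in the others (median -1.66), or 137%. These were the 2 bright loci above all 7 others. AT5G41830 (shift 1.66), AT5G40790 (1.37), scpl41 (0.98) and SWEET8 (0.92), a sugar transporter of pollen wall formation, had larger or similar shifts but stood within the range of the others. The dim MYB24, a factor of stamen development, had -6.30 in ExTQ003 within the -9.89 to -1.37 of the others. SWEET8 and MYB24 belong to flower tissue, whose markers varied among the arrays as given above, and the part of flower tissue in these values was not tested.

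The dim loci did not share the lowering. Their median shift in ExTQ003 was 0.30 over 35 loci of the first stretch and 0.20 over 87 of the second, against 0.26 over 5918 dim loci elsewhere. Of the dim loci 63 were well above background on no array. In ExTQ003 4 dim loci, 2 in each stretch, were below all 7 others, where the share of all dim loci was 2.57%. AT5G40750 was well above background in ExTQ003 and in 0 of the 7 others, at -6.54 in ExTQ003 and -9.34 to -7.62 in the others, or at least 2.21-fold higher. Probes near the floor of the array carry mostly background, so their shifts say little about transcripts.

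Where a locus had a pair of probes, both were mostly below 0. The JAZ10 probes had shifts of -1.49 and -1.54, those of UBC8 -0.46 and -0.47, those of AT5G13890 -0.52 and -0.62, and those of DL1, a dynamin-like protein of cell plate formation, -0.78 and -0.48. Both DL1 probes were below all 7 others, the brighter one with 2.82 in ExTQ003 and 3.12 to 3.46 in the others. The probes of BG_PPAP, a glucanase at plasmodesmata, had shifts of 0.09 and 0.59. Those of GSTT2, a theta-class glutathione transferase, had -0.04 and -1.41, the second being well above background on only 1 array.

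With a single array per strain, a fit across all genes draws its spread from the 7 others and can resolve only large differences. limma was run for each strain against the 7 others over 22381 loci that were well above background on at least 1 array, 506 of them in the stretches, with Benjamini-Hochberg adjustment over all loci of a strain. Calls needed a log2 difference of 1 or more in size and an adjusted p below 0.05. In ExTQ003 0 loci of the stretches and 0 of the genome were called higher or lower (background 0% and 0%). At an unadjusted p under 0.05, 93 of 506 loci were lower and 3 higher, where 1.13% and 0.599% of all loci were. With median scaling the lower count was 14 of 506, beside 83 of 22381 in the genome, and under the other alternatives it was 73 to 128. The median difference was -0.36 over the stretches and 0.04 over all loci. These counts use the contrast that chose the stretches and are given as a description.

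With the main processing, calls in the stretches made up no larger a share than in the genome in the other strains. The low values of ExTQ003 enter each of these fits in the stretches, so the shares are a description. In ExTQ016 3 of 506 loci were called higher (0.593%, background 1.38%) and 0 lower (background 0.00447%). In ExTQ019 16 were called higher (3.16%, background 4.40%) and 17 lower (3.36%, background 6.30%). In the remaining 5 strains 0 loci of the stretches were called. For ExTQ002 0.0313% of all loci were called higher and 0.0536% lower, for ExTQ015 0.0491% and 0.00447%, for ExTQ005 0.00447% and 0%, and for ExTQ013 and ExTQ018 0%.

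At an unadjusted p under 0.05 in limma, ExTQ002 had 5 of the 506 higher and 42 lower, where 1.60% and 7.98% of all loci were. ExTQ013 had 3 higher and 1 lower (0.398% and 0.590% of all loci), ExTQ015 1 and 1 (0.331% and 0.822%), ExTQ005 1 and 0 (0.264% and 0.290%), and ExTQ018 11 and 1 (1.34% and 0.331%). Between the slides 0 loci were called (background 0%), and at an unadjusted p under 0.05 44 of the 506 were higher and 3 lower on the second slide, where 6.17% and 3.92% of all loci were. ExTQ003, chosen for its low values in these loci, is 1 of the 4 arrays of the first slide. In the stretches this contrast therefore cannot tell the slide from that strain. Each fit of another strain also holds ExTQ003 among the arrays that the strain is set against. In the stretches its low values lower the mean of those arrays and can widen their spread. Lower calls of other strains are less likely there, so these shares cannot be set against that of ExTQ003. The shifts of the other strains leave ExTQ003 out. Over the bright loci of both stretches their medians were -0.04 to 0.11, against -0.41 in ExTQ003. With median scaling ExTQ002 had 28 of 506 lower, beside 1225 of 22381 in the genome. ExTQ003 then had 14 of 506, beside 83 in the genome. These differences were not tested.

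The loci called in ExTQ016 were a seed gene and a pair without a symbol, each well above background only there. They entered the test only through ExTQ016, and the spread of the others is that of background signal. The calls are therefore no support, and the values are given as a description. OLEO2, an oil-body protein of seeds, had 0.63 in ExTQ016 and averaged -8.98 ± 1.00 in the others (SD, n = 7), at least 306-fold higher. AT5G12460 had -3.60 in ExTQ016 and averaged -9.29 ± 0.51 in the others (SD, n = 7), at least 16.3-fold higher. AT5G42235 had -7.14 in ExTQ016 and averaged -9.71 ± 0.24 in the others (SD, n = 7), at least 1.40-fold higher. ExTQ016 was also the array with all 6 seed markers well above background, and the part of seed tissue in these values was not tested. Against the 3 others of its slide alone, none of the 3 was called.

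The 5 largest called differences of ExTQ019 included cwINV6 and CML37, which were far below the others in ExTQ003. cwINV6 had 1.73 in ExTQ019 and averaged -4.83 ± 1.53 in the others (SD, n = 7), a log2 difference of 6.56 ± 1.49 (SE, limma adjusted p = 0.0247). CML37 had 1.60 in ExTQ019 and averaged -3.40 ± 1.38 in the others (SD, n = 7), with an SE of the difference of 1.34 (limma adjusted p = 0.0429). GDPD2, a glycerophosphodiester phosphodiesterase, had -4.22 in ExTQ019 and averaged 0.98 ± 0.73 in the others, a difference of -5.20 ± 0.71 (SE, limma adjusted p = 0.00458). cwINV6 and CML37 were the highest, and GDPD2 the lowest, of all strains in ExTQ019.

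DFR had 1.23 in ExTQ019 and averaged -4.76 ± 1.62 in the others, a difference of 5.98 ± 1.57 (SE, limma adjusted p = 0.0403), which became 0.0643 with slide as a block. AATP1, an AAA-type ATPase, had -1.64 in ExTQ019 and averaged -6.03 ± 1.17 in the others, a difference of 4.40 ± 1.14 (SE, limma adjusted p = 0.0389), a call lost under 8 of 19 alternatives. LHT1 and BIP2 were higher by 3.29 ± 0.62 and 1.78 ± 0.31 in ExTQ019 (SE, limma adjusted p = 0.0133 and 0.00937). Of the TIR-NBS-LRR genes, AT5G40060 was higher by 1.04 ± 0.21 (SE, limma adjusted p = 0.0171). AT5G41550 was called higher too (limma adjusted p = 0.0309, and 0.0581 within the slide), at -5.17 in ExTQ019 and a mean of -7.46 in the others, but only 1 of the 7 others was well above background, so no size is given. AT5G40100 was not well above background in ExTQ019 and at least 4.31-fold lower there (limma adjusted p = 0.0208). The fits of ExTQ003 and ExTQ019 share the other 6 arrays and each holds the other strain among its 7, so the values are set side by side only.

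The ExTQ003 stretches, with median shifts of -0.41 and -0.40 and quartiles of -0.61 to -0.26 and -0.65 to -0.16, were shallower in the median than 3 lowered stretches of other strains. A chromosome 2 stretch of ExTQ015 (163 bright loci) had a median shift of -0.61, or 65.4% of the other strains, with 94.5% of loci below 0. A chromosome 3 stretch of ExTQ019 (535 bright loci) stood at -0.92, or 52.7%, and its chromosome 5 end (1481 bright loci) at -0.87, or 54.9%. The quartiles were -0.81 to -0.43 in ExTQ015 and -1.31 to -0.50 and -1.29 to -0.48 in ExTQ019. The quartile ranges of the ExTQ003 stretches overlap all of these. All 5 stretches were found by their low values, in 3 strains with 1 array each, and the difference between them was not tested.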

How the data were processed

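RNA from leaves of 8 strains was hybridised to 1 Agilent 1-colour array each, on 2 slides of 4. The labelled material was total RNA (200 ng, Cy3), per the labels' protocols, although the molecule field names genomic DNA. Agilent Feature Extraction 11.0.1.1 gave the authors' intensity values, per the file headers, after subtracting background and without scaling arrays to each other. The deposited table of the series holds log2 values, read from a correlation of at least 0.997 with the log2 signal of the same array (at most 0.994 with another). How that table was made is not stated beyond limma's name in the submitters' processing notes.

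Outlier spots were set aside, spots of a probe averaged on the log2 scale, and each array scaled by its 75th percentile. A locus with several probes was represented by its brightest one on average. Of 25665 loci, 25643 had a usable probe. Symbols came from the TAIR10.1 gene table, which held 566 of the 569 loci. limma 3.58.1 (R 4.3.3) was used with lmFit and eBayes, and tested on simulated data. With 1 array per strain, p-values measure the spread among the other strains, and precision is limited by the number of arrays.

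The stretches, gene lists and tests were chosen with earlier results of these data known. Genes are named by this rule: loci at the ends, the steadiest, lowest, highest and brightest loci of each stretch, loci with several probes, the 5 largest calls per strain, loci that change between well above and not above background, and the members of the lists. Where all arrays of a group lay below background, a fold is given as a bound, the bright mean over the dim signals, each raised to the lowest signal well above background on its array. Alternatives were normexp background correction, raw median signal, quantile or median scaling, the deposited series values, other filters and probe rules, slide as a block or within a slide, and each array left out. The planned normexp correction used the median signal, because the files used here give no mean signal.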

Additional observations from a re-analysis of the deposited data

Results flagged for a closer look

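A value was picked out when the highest or lowest of the 8 strains lay far from the next one, with a gap that, as a share of the whole range, exceeds Dixon's 95% critical value for 8 samples. Chance picks out about 1 in 20 such groups where the values did not choose the gene. That rate does not hold for genes named because of their values in these arrays. For ExTQ003 the gap is a description and no test, because its low values chose the stretches. The median shifts of the stretches, -0.41 in the first and -0.40 in the second with ExTQ003 lowest, were low by the choice of the stretches. Of the 101 genes checked, 24 had such a gap, 12 of them with ExTQ003 lowest.

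In the first stretch and just past its end ExTQ003 was lowest and far from the rest at AT5G11710 (level 0.75), AT5G12120 (2.91), AK-LYS1 (1.08), AT5G13780 (1.78) and AT5G14430 (0.62). In the second stretch it was so at AT5G40550, the gene SGF29b (-1.06), AT5G40660 (1.15), AT5G41330 (0.32), GLA1 (-0.53), AT5G41580 (-1.82), AT5G41950 (1.18) and U2AF35B (0.78). Most of these genes were named because they were steady in the other strains, which makes such a gap wider as a share of the range. ExTQ003 was highest and apart at AT5G40140 (-3.67).

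Other strains stood apart at the remaining genes. Of these, cwINV6, GDPD2, OLEO2, AT5G12460 and AT5G42235 were named in part because they were called in the same strain, which favours such a gap. ExTQ019 was highest at GUN5 (5.54), LHT1 (3.75), AT5G40060 (-1.10), AT5G40910 (2.36), BIP2 (3.81) and cwINV6 (1.73), and lowest at GDPD2 (-4.22). ExTQ016 was highest at OLEO2 (0.63), AT5G12460 (-3.60) and AT5G42235 (-7.14). ExTQ005 was highest at CDF2 (-2.17), just outside the second stretch.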

How the results depend on the processing

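Leaving out each other strain gave median shifts of -0.43 to -0.42 in the first stretch and -0.41 to -0.39 in the second. The count of bright loci with ExTQ003 lowest was 238 of 447, and 241 to 270 with a strain left out, which can only keep or raise it. Other settings lowered it. Median scaling gave 179 (5.86% of all bright loci), normexp with the 75th percentile 169 (13.1%) and normexp with quantile scaling 207 (8.97%). The raw median signal gave 201 (8.29%), the deposited series values 207 (9.09%) and quantile scaling 225 (9.87%). Planned settings moved the medians too. The raw median signal gave -0.41 in the first stretch and -0.34 in the second, and the deposited series values -0.38 and -0.34. Median scaling gave -0.45 and -0.39, and quantile scaling -0.42 and -0.41. Alternatives chosen after seeing the data also moved the medians. Normexp with quantile scaling gave -0.37 and -0.33. Normexp with the 75th percentile gave -0.46 and -0.06, and -0.36 for the brightest of 3 classes of loci of the first stretch when centred on the median of that class over the genome. Under that setting, centred on all bright loci, ExTQ003 was high throughout the genome among the dimmest of 3 classes of bright loci (1.55, 1.12 and elsewhere 1.26) and low among the brightest (-0.73, -0.82 and elsewhere -0.36), and limma called 128 loci of the stretches in ExTQ003 (122 higher, 6 lower) beside 5381 higher and 10 lower in the genome. The cause was not tested.

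Counts in other strains also moved. In ExTQ016 normexp with the 75th percentile, a filter on all 8 arrays and the same slide each gave 0 calls, beside 0, 9 and 0 in the genome. No filter gave 5 of 569, beside 323 higher and 1 lower of 25643. Leaving out a strain gave 3 to 5 of 506. The 5 without ExTQ018 stood beside 359 higher and 7 lower of 22381, and the 5 without ExTQ019 beside 313 and 10. In ExTQ019 the same normexp setting gave 9 of 506, beside 303 higher and 707 lower of 22381. Median scaling gave 20 (genome 705 and 787) and slide as a block 54 (genome 1329 and 2006). The same slide gave 81, 40 higher and 41 lower (genome 1673 and 2322). Leaving out a strain gave 19 to 50. It gave 50 without ExTQ002 (genome 1377 and 1802), 19 without ExTQ015 (763 and 1222) and 20 without ExTQ005 (731 and 1215). Quantile scaling gave 1 call in ExTQ013, higher, beside 2 higher in the genome. Leaving out a strain gave 0 to 6 calls in ExTQ002. The 6 without ExTQ013 were 1 higher and 5 lower, beside 75 and 272 in the genome. In ExTQ018 it gave 0 to 3, with 3 higher without ExTQ016, beside 18 higher in the genome. In these settings of ExTQ013 and ExTQ018, and for higher calls of ExTQ019 within its slide, the share in the stretches was larger than in the genome, which was not tested. Of the named calls, those of cwINV6, LHT1, GDPD2 and BIP2 held under all 19 alternatives, that of AT5G40420 (OLEO2) was lost under 2 of 18, that of DFR under 9 of 19 (adjusted p 0.0110 to 0.150), that of CML37 under 7 of 19 (0.0188 to 0.0763), that of AATP1 (AT5G40010) under 8 of 19 (0.00752 to 0.192), that of AT5G41550 under 8 of 18 (up to 0.969), that of AT5G40060 under 6 of 19 (up to 0.248), that of AT5G40100 under 4 of 18 (up to 0.650) and that of AT5G12460 under 2 of 18. AT5G42235 turned to -0.14 in ExTQ016 under normexp with the 75th percentile and lost its call under 5 of 18. No paired analysis was possible because all samples form 1 group.

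Each strain had 1 array, so strain, plant and array cannot be told apart. The planned normexp on the mean signal was not run. Signals near background limit the dim loci.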
